A study of Rattus norvegicus with 6 samples.

Results

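The cytosolic ribosomal proteins of the rat adrenal gland are described here through 104 probe sets of an oligonucleotide array that stand for 66 ribosomal protein genes. Members were chosen by name alone, as every probe set with a gene symbol that begins like a ribosomal protein of the large subunit (Rpl), the small subunit (Rps) or the P stalk (Rplp), pseudogenes and gene copies included. That pattern matched 106 of the 8740 probe sets that are not array controls, and 2 of the 106 belong to the protein kinase gene Rps6kb1, which phosphorylates a ribosomal protein and is described apart. Copies are counted with their gene in the 66, whereas the 5147 distinct gene symbols on the array count each copy by its own symbol. Of the 104, 64 were annotated to the large subunit, 37 to the small subunit and 3 to the P stalk. A single symbol named 64 of them and several symbols, mostly a gene with its processed copies, named the other 40.

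Adrenal glands of 2 inbred rat strains were compared, the spontaneously hypertensive rat (SHR), which develops high blood pressure without treatment, and the Wistar-Kyoto rat (WKY), a related strain with normal blood pressure, with 3 arrays each. Total RNA from whole gland was read on 1 type of single-colour array, and the labels name no treatment, transgene, age or sex. The labels number the arrays of a strain as replicates but do not say that each came from another animal, so each p-value speaks only of how far these arrays scatter, and that scatter may be technical. Array scans gave 1 linear intensity for each probe set, with nearly equal trimmed means over the arrays, though how they were scaled is not stated. The 3 arrays a strain limit the precision of every value.

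A ribosome is built from ribosomal RNA and about equal numbers of each ribosomal protein, and its large and small subunits are assembled in the nucleolus before they meet on a messenger RNA. Ribosomal protein messenger RNAs are among the most abundant in any cell. Most begin with a run of pyrimidines at the cap, called a 5′ terminal oligopyrimidine tract, through which the mTOR pathway controls their translation. Mammalian genomes hold many processed copies of these genes, so short array probes often match several places, and a probe set named for a gene and its copies reads their transcripts together.

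The start of Rpl17 and those of 2 of its copies are printed first, because the single ribosomal protein probe set that passed the test of strain is shared by them. Each line gives 30 bases around the annotated transcript start in RefSeq's GRCr8 assembly, 15 before it and 15 from it on, read on the gene's own strand, and capitals mark a tract at the start, defined as a C followed without a break by at least 4 more C or T.
Rpl17 (chr18:70856261-70856290, plus strand): tagccttcgcgcttcCTCTTCCTgttagcg
Rpl17l3 (chr2:38662277-38662306, plus strand): gtggccagaggtgacctgtgaagatggttc
Rpl17l5 (chr10:45862425-45862454, minus strand): taaatgttatcctttataagagttgccttg

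Only the first of these 3 starts carries the tract. The next lines begin with Rpl31, whose tract has the longest length found. They go on with genes described below, down to the shortest tract, and then 2 starts without it.
Rpl31 (chr9:49143096-49143125, plus strand): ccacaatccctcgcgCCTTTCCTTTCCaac
Rps15 (chr7:10068101-10068130, minus strand): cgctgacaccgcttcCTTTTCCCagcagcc
Rps7 (chr6:50999431-50999460, minus strand): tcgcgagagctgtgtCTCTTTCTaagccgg
Rpl10a (chr20:6390518-6390547, plus strand): gaaaccttctgccttCTTTTCCggttcccg
Rplp0 (chr12:46718376-46718405, minus strand): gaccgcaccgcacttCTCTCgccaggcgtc
Rps16 (chr1:92770643-92770672, plus strand): cctggaaaatcggtcggggtggccccaagc
Rps6 (chr5:106420526-106420555, minus strand): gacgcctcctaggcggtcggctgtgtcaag

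A promoter entry was matched for 57 of the 66 genes. The tract stood exactly at the annotated start in 21 of them (36.8%), against 881 of all 33469 promoters in the same table (2.63%), and within 5 bases of the start in 34 (59.6%), against 5704 (17%). Only the gene's own strand was searched, and the 21 tracts were 5 to 12 bases long with a median of 8. The annotated start fixes what is counted, and a gene without the letters at that base may still begin with a tract nearby.

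The ribosomal proteins were bright on these arrays. Of the 104 probe sets, 98 lay above the brightness filter, which kept 5244 probe sets in all, and these 98 stood for 65 genes. Of the brightest 10% of the kept probe sets, 525 in number, 82 were ribosomal protein probe sets. Their mean intensities ran between 1146.5 and 73784, with a median of 33733, against a median of 2031 over all kept probe sets. The highest value of a ribosomal protein probe set on any array was 81855, and the highest of any kept probe set was 123785. No ribosomal protein probe set was listed at 0 on any array.

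Below the filter lay 6 probe sets, which were not tested. They were 1 each of Rps13 and Rpl3l, both of the pseudogene Rps2-ps1, one named for Rpl4 together with the 18S and 45S ribosomal RNAs, a beta globin, Pfdn1 and B2m, and the only one of Rplp1, which is annotated to a copy, Rplp1l3. Rplp1, one of the acidic proteins of the stalk, therefore had no bright reading, with 369.9, 294 and 560.4 in SHR glands and 219, 251 and 309.7 in WKY glands. By mean log2 intensity, which the filter used, the dimmest probe set kept was that of Rpl30 (D84480_s_at), and the brightest left out was L81138exon_i_at of Rps2-ps1 at 378, 364 and 482 in SHR glands and 774, 97.6 and 125 in WKY glands.

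As a group the ribosomal proteins differed little between SHR and WKY adrenal glands. In the fit over all 5244 probe sets with limma and Benjamini-Hochberg adjustment, at an adjusted p under 0.05, 0 ribosomal protein probe sets were called higher in SHR and 1 was called lower, which is 1.02% of the 98 tested, against 1.95% of all tested probe sets. The background for each direction was 1.07% called higher and 0.877% called lower in SHR. At an unadjusted p under 0.05 limma gave 0 higher and 4 lower, or 4.08%, against 13.9% of all tested probe sets. The call was a probe set of Rpl17 and the other 3 were those of Rps16, Rpl23a and Rpl9.

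The log2 differences, SHR minus WKY, ran between -1.61 and 0.60 with a median of -0.044, and the median over all tested probe sets was -0.0069. They were negative for 62 probe sets and positive for 36, and after scaling the arrays to a common median the split was 51 to 47, while after quantile normalization it was 69 to 29. The middle part of the distribution, between the lower and upper quartile, ran between -0.12 and 0.058. In 52.0% of the 98 the log2 difference was at most 0.1 in size, in 83.7% at most 0.2 and in 94.9% at most 0.5. The same shares were 25.9%, 46.9% and 81.9% over all tested probe sets, and 35.4%, 60.6% and 87.8% in the brightest 10%.

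The small differences can also be read from the intervals. For 83 of the 98 probe sets (84.7%) the 95% interval of the difference lay inside 1.5-fold in either direction, against 27.9% of all tested probe sets and 66.5% of the brightest 10%. The median spread between arrays of a strain was a log2 SD of 0.13 for the ribosomal proteins, 0.26 over all tested probe sets and 0.16 in the brightest 10%. An interval inside that range bounds the difference given how far arrays of a strain scatter, and does not show that the strains were equal.

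**Figure D1:**
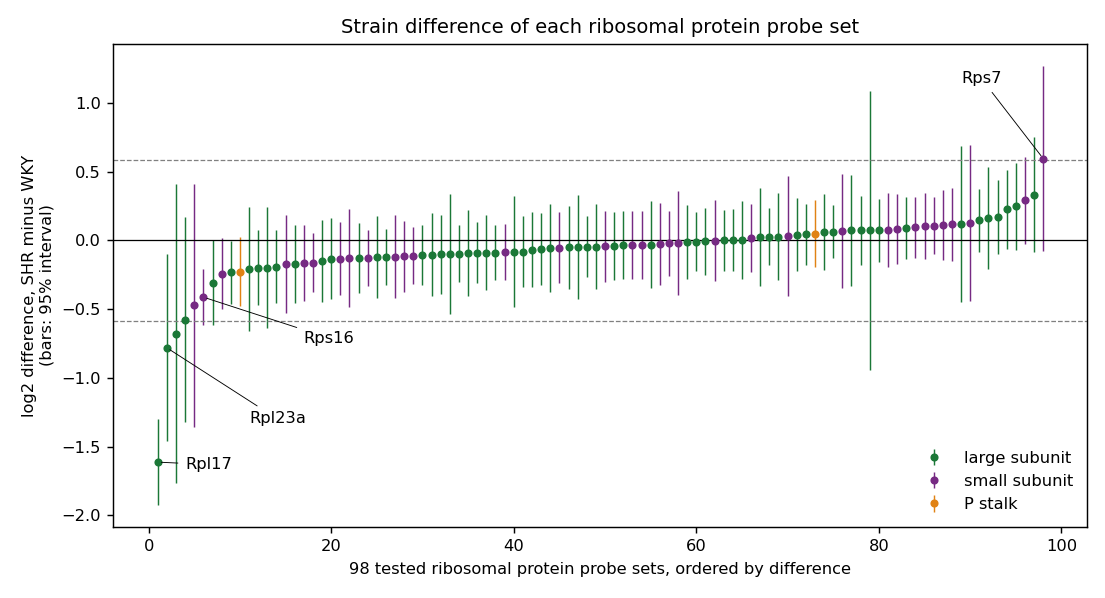
Log2 difference in intensity, SHR minus WKY (vertical axis), of each of the 98 tested ribosomal protein probe sets in order of size (horizontal axis), with 95% intervals as bars, colours for the subunit and dashed lines at 1.5-fold. A single probe set, of Rpl17, lies at -1.61 and most of the others lie within 0.2 of zero.

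Brightness alone was set beside this. Among probe sets with a mean intensity of 50000 or more, the median size of the log2 difference was 0.053 for 25 ribosomal protein probe sets and 0.12 for 89 others. Between 30000 and 50000 it was 0.10 for 32 ribosomal protein probe sets and 0.18 for 74 others, and between 10000 and 30000 it was 0.11 for 30 and 0.19 for 404. Below 10000 it was 0.16 for 11 ribosomal protein probe sets and 0.23 for 4579 others. The ribosomal proteins thus had the smaller median in each of the 4 ranges, with few of their probe sets in the lowest. Whether signals near the top of the scale were compressed was not tested.

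**Figure D2:**
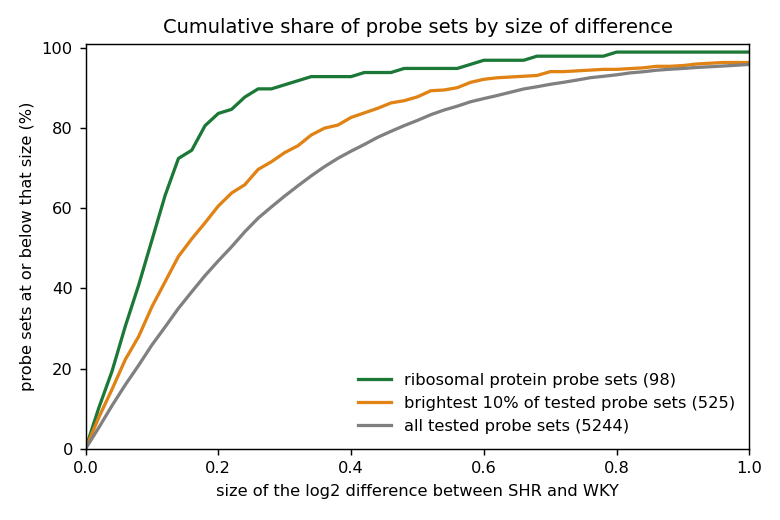
Cumulative share of probe sets (vertical axis, percent) whose log2 difference between SHR and WKY is at most the size on the horizontal axis, for the 98 ribosomal protein probe sets, the brightest 10% and all tested probe sets. The ribosomal protein curve reaches 83.7% at 0.2, above 60.6% for the brightest 10% and 46.9% for all.

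The subunits gave like values. The large subunit had a median log2 difference of -0.050 over 62 tested probe sets, with 1 called lower and 0 higher by limma and 3 at an unadjusted p under 0.05. For the small subunit the median was -0.03 over 34 probe sets, with 0 called and 1 at an unadjusted p under 0.05. Probe sets with a single symbol had a median of -0.038 over 60, with 0 called by limma and 1 at an unadjusted p under 0.05. Those with several symbols had a median of -0.050 over 38, with 1 called and 3 at an unadjusted p under 0.05. With the brightest probe set of each of the 65 genes, limma called 0, with 2 at an unadjusted p under 0.05, and the median was -0.046.

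Rpl17, a large-subunit protein that lines the tunnel through which the growing peptide leaves the ribosome, gave the single call. Its probe set X60212_i_at, shared by Rpl17, Rpl17l5, Rpl17l3 and Rpl17-ps17, read 13327, 12517 and 16069 in SHR glands and 38238.5, 44841 and 45856 in WKY glands. Every SHR array lay far below every WKY array. The means were 13971 ± 1862 in SHR and 42978.5 ± 4136 in WKY (SD, n = 3 each), so the signal was 3.06-fold lower in SHR, at a log2 difference of -1.61 ± 0.13 (SE, 95% interval -1.92 to -1.30, limma adjusted p = 0.00104). The suffix of the probe set says that it holds fewer probes than the array maker's usual number. Probe sequences were not used here, so whether the strains differ in sequence under these probes, which would change the hybridization without a change in transcript level, was not tested.

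The other probe sets of Rpl17 did not show this. X58389cds_s_at, shared by Rpl17, Rpl17l5, Rpl17-ps17 and Rpl17-ps16, read 29229.7, 31915 and 29873 in SHR glands and 37449.8, 34017 and 24189.5 in WKY glands. Its strains overlapped, and the log2 difference was -0.05 ± 0.16 (95% interval -0.43 to 0.33, limma adjusted p = 0.932). AB013454_at, the one probe set named for Rpl17 alone, was dimmer, at 2809, 2148 and 1912 in SHR glands and 2736, 2267 and 2899 in WKY glands. Its strains overlapped as well, with a log2 difference of -0.20 ± 0.19 (95% interval -0.64 to 0.24, limma adjusted p = 0.704).

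The probe sets were also set against each other within each array, on the log2 scale with the 181.5 added, so that scaling of the array does not wholly cancel. The log2 ratio of X60212_i_at to X58389cds_s_at averaged -1.12 ± 0.23 in SHR and 0.45 ± 0.45 in WKY (SD, n = 3 each), a difference of -1.56. Against AB013454_at the log2 ratio averaged 2.53 ± 0.40 in SHR and 3.94 ± 0.24 in WKY, a difference of -1.41. In both cases the strains did not overlap, and the exact two-sided permutation test over the 20 regroupings of the arrays gave p = 0.1, the smallest this design allows, adjusted p = 0.1 over the 2 tests, which were chosen after the values were seen. These ratios restate, as a description, the gap between the probe sets' own differences, and do not tell which of the transcripts they share or do not share was involved.

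The hybridization runs were not balanced over the strains. By the instrument settings, the first run took all 3 WKY arrays and SHR replicate 1, and the second took the other 2 SHR arrays. X60212_i_at read 13327 in the SHR array of the first run, below all 3 WKY arrays of that run. Since the second run held SHR arrays only, a fit with the run as a block takes its strain difference from the first run, from 1 SHR array against 3 WKY arrays. That log2 difference for the Rpl17 probe set was -1.67, with a limma adjusted p of 0.0355 (SE 0.21) where the run was a block and the second run helped to estimate the spread. The limma adjusted p was 0.0969 (SE 0.18) in the first run alone, a setting added after seeing the data in which 1 probe set in all was called.

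**Figure D3:**
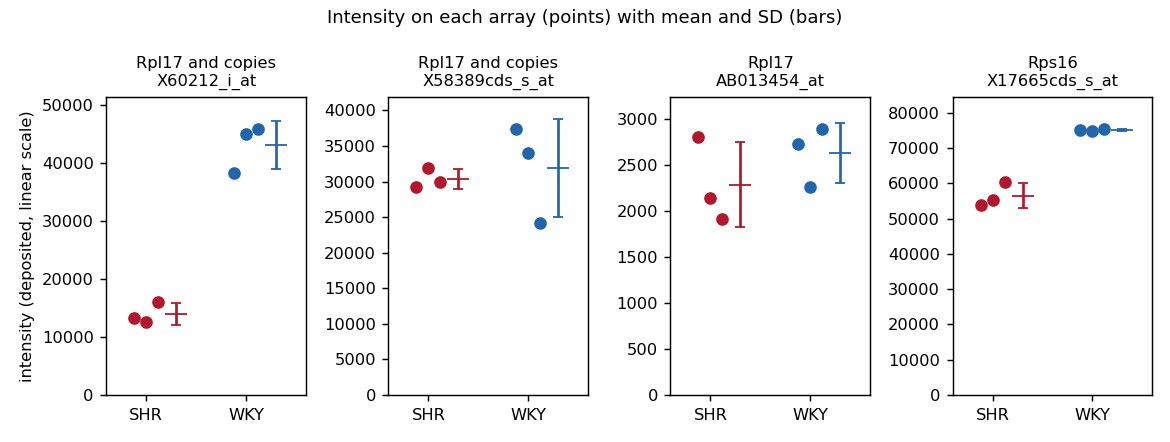
Deposited intensity (vertical axes, linear, starting at 0) on each array for the 3 Rpl17 probe sets and the Rps16 probe set, with points for arrays and bars for the mean and SD of 3 arrays. X60212_i_at and Rps16 separate SHR from WKY without overlap, and the other Rpl17 probe sets do not.

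Rps16, which sits in the head of the small subunit, came next by p-value. Its single probe set X17665cds_s_at read 53904, 55247 and 60506 in SHR glands and 75268, 74920.0 and 75566 in WKY glands. The WKY arrays lay within 1 narrow band and all SHR arrays lay below it. The log2 difference was -0.41 ± 0.09 (95% interval -0.62 to -0.21), at a limma adjusted p of 0.0691, above the threshold. It passed after quantile normalization, at a log2 difference of -0.45 (limma adjusted p = 0.0452), and with the filter at the 60th percentile, at -0.41 (limma adjusted p = 0.0471). It did not pass in any of the other settings, among them scaling to a common median (limma adjusted p = 0.201), no intensity trend (0.255), the module as a block (0.291), the run as a block (0.304), the first run alone (0.406) and each array left out in turn (0.0919 to 0.255).

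Another 4 ribosomal proteins had the most negative differences without passing the test, and in all of them 1 SHR array stood below the other arrays. Rpl23a, a protein at the exit of the peptide tunnel, read 11050.5, 11804 and 5132 in SHR glands and 15232, 16945 and 13564 in WKY glands through a probe set shared with 3 copies. The SHR arrays were all below the WKY arrays, and the log2 difference was -0.78 ± 0.29 (limma adjusted p = 0.286). SHR replicate 3 had the lowest value by a wide margin.

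Rpl10a, which forms the mobile L1 stalk near the exit site for transfer RNA, read 14261, 31369 and 36864 in SHR glands and 41952, 32169 and 40807 in WKY glands. SHR replicate 1 was far below the rest and the strains overlapped without it, at a log2 difference of -0.58 ± 0.32 (limma adjusted p = 0.471). Rps12, a protein of the small subunit's beak, read 43190.5, 15276 and 48686 in SHR glands and 42773, 46137 and 43876.5 in WKY glands. SHR replicate 2 alone was low, and the log2 difference was -0.47 ± 0.38 (limma adjusted p = 0.635).

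Rpl30, a large-subunit protein, had 2 probe sets that read apart. D84480_s_at, among the dimmest of the group, read 1292, 1081 and 324 in SHR glands and 1532, 770.3 and 2174 in WKY glands, with a log2 difference of -0.68 ± 0.47 (limma adjusted p = 0.574). The brighter one, rc_AI233749_at, shared with the gene's copies, read 13599.9, 15036 and 14718 in SHR glands and 16012, 15502 and 14438 in WKY glands. Its strains overlapped and its log2 difference was -0.08 ± 0.11 (limma adjusted p = 0.795).

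Single low arrays of this kind occurred 6 times among the 98 probe sets, counted where 1 array lay more than 1 log2 unit from the median of the other 5 and over 0.5 from the nearest. They were the 4 above in SHR and 2 in WKY. In WKY replicate 3 the probe set X07686cds_s_at, annotated to the copy Rpl19l4, read 1527 against 2858 to 6111 in the others. In WKY replicate 1 a probe set of Rps7 read 7729 against 13838 to 20850.4. No array held more than 2 of the 6, and every one of them was a low value.

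**Figure D4:**
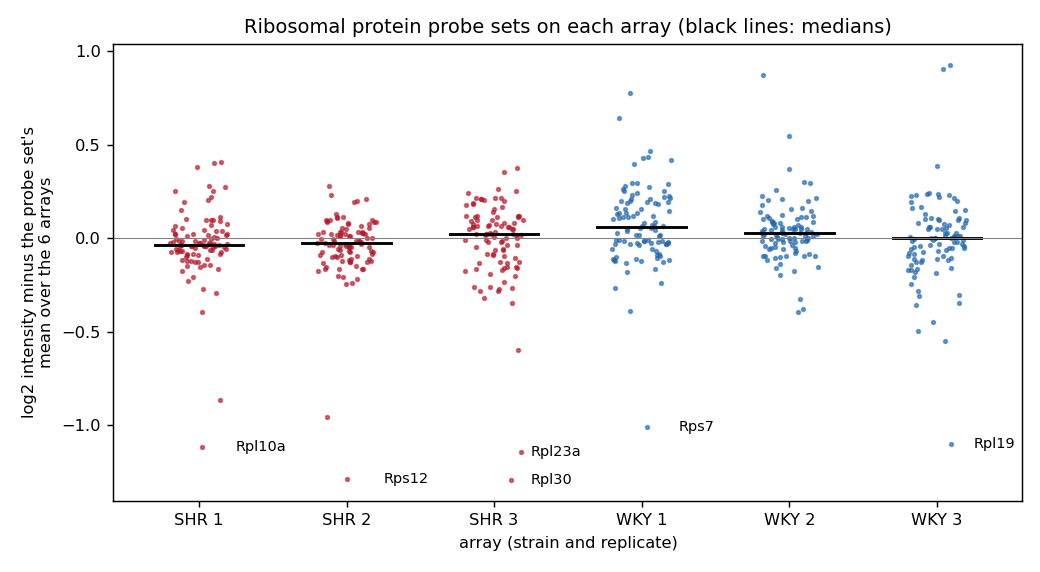
Log2 intensity of each tested ribosomal protein probe set minus its own mean over the 6 arrays (vertical axis) on each array (horizontal axis), with black lines at the medians and names at the 6 single low values. The array medians lie between -0.034 and 0.059.

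The group as a whole moved little between arrays. The median deviation of the 98 probe sets from their own means was -0.034, -0.026 and 0.021 on the SHR arrays and 0.059, 0.026 and 0.0001 on the WKY arrays. Over all tested probe sets the same medians were 0.045, 0.026 and -0.036 in SHR and -0.017, 0.015 and 0.049 in WKY. SHR replicate 3 lay above WKY replicate 3 in the ribosomal protein medians, so the strains overlapped there.

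The 6 largest positive differences came from 5 genes, and 0 of them passed the test. Rps7, a small-subunit protein that also binds Mdm2, read 20850.4, 19144 and 18288 in SHR glands and 7729, 19459 and 13838 in WKY glands through rc_AI175486_at, at a log2 difference of 0.60 ± 0.29 (limma adjusted p = 0.414). The strains overlapped, and WKY replicate 1 was the low array named above. Its other probe set X53377cds_s_at gave 0.03 ± 0.19 on the log2 scale (limma adjusted p = 0.964).

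Rpl3l, a paralogue of Rpl3 that mice and humans express in heart and skeletal muscle, read 3307, 2923 and 2338 in SHR glands and 2401, 1958 and 2301 in WKY glands. WKY replicate 1 overlapped the SHR arrays, and the log2 difference was 0.33 ± 0.18 (limma adjusted p = 0.459). Its second probe set lay below the filter.

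Rps15, which reaches towards the decoding centre from the head of the small subunit, had 3 probe sets. One of them, rc_AA892895_r_at, read 20954, 18822.5 and 17557 in SHR glands and 17445, 16107 and 13385 in WKY glands, so that SHR lay above WKY without overlap, at a log2 difference of 0.29 ± 0.14 (limma adjusted p = 0.403). The others gave log2 differences of -0.12 ± 0.13 (rc_AA892895_i_at, limma adjusted p = 0.732) and 0.02 ± 0.11 (E01534cds_s_at, limma adjusted p = 0.963). The 3 probe sets thus differed in sign, with intervals that all included zero.

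Rpl8, which helps form the peptidyl transferase centre, had 3 probe sets shared with its copies. X62145cds_g_at read 48018, 44301 and 58549 in SHR glands and 43103, 46232 and 37106 in WKY glands, with overlap, at a log2 difference of 0.25 ± 0.14 (limma adjusted p = 0.462). X62145cds_at gave 0.17 ± 0.12 on that scale (limma adjusted p = 0.565) and rc_AA892582_s_at gave 0.00 ± 0.10 (limma adjusted p = 0.993). Rpl12, a protein at the base of the stalk, read 20481, 22908.5 and 21359 in SHR glands and 19733, 19730.4 and 16039 in WKY glands through X53504cds_at, without overlap and at a log2 difference of 0.23 ± 0.12 (limma adjusted p = 0.466). Its second probe set, X53504cds_g_at, gave 0.04 ± 0.10 (limma adjusted p = 0.881).

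Agreement between probe sets of a gene could be read for 27 genes with several tested probe sets, 60 in all. The distance between a gene's highest and lowest log2 difference had a median of 0.13 and was under 0.25 in 22 genes. It was over 0.5 in 3, at 1.56 for Rpl17, 0.59 for Rpl30 and 0.56 for Rps7. Rpl21, with 4 probe sets, gave -0.19 ± 0.12, -0.20 ± 0.12, 0.03 ± 0.15 and -0.21 ± 0.19. Rps4x, an X-linked protein of the small subunit, gave -0.03 ± 0.13 and 0.08 ± 0.12, and a probe set annotated to its copy Rps4x-ps9 alone gave -0.02 ± 0.16. Copies are counted with their gene here, as is the Rpl19 probe set annotated to Rpl19l4 alone.

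**Figure D5:**
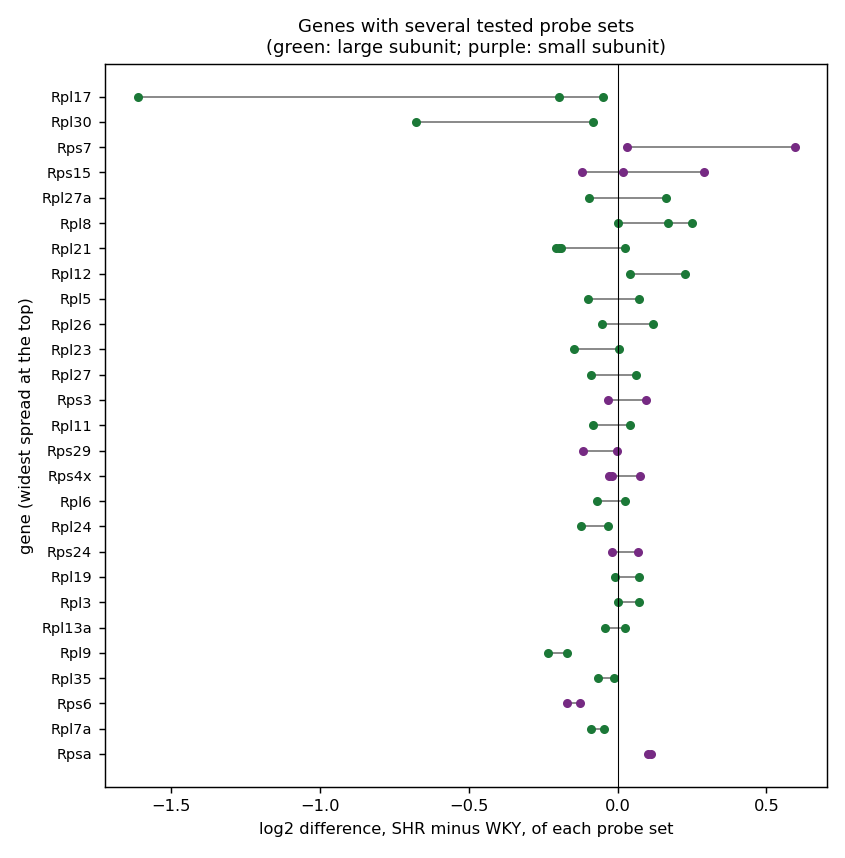
Log2 difference, SHR minus WKY (horizontal axis), of each probe set of the 27 genes with several tested probe sets (vertical axis, widest spread at the top), joined by a line within a gene. The Rpl17 line spans 1.56 and 22 of the 27 lines are shorter than 0.25.

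The P stalk, which draws elongation factors to the ribosome, was read through 2 tested probe sets. Rplp0, the stalk's anchor and a common normalization gene in other assays, read 71835, 66155 and 81136 in SHR glands and 65605, 73941 and 71631 in WKY glands. Its strains overlapped and the log2 difference was 0.05 ± 0.11 (95% interval -0.20 to 0.30, limma adjusted p = 0.877). Rplp2, an acidic partner that binds Rplp0 together with Rplp1, read 42445, 42709 and 36366 in SHR glands and 45723, 51099.8 and 45439.9 in WKY glands, SHR lying below WKY without overlap, at -0.23 ± 0.11 (limma adjusted p = 0.404).

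Rps6, the small-subunit protein phosphorylated by S6 kinase, had both probe sets slightly negative and neither passed. M29358_at read 20656, 21049 and 19107 in SHR glands and 28801, 19962 and 20684 in WKY glands, with overlap, at a log2 difference of -0.17 ± 0.16 (limma adjusted p = 0.681). M29358_g_at gave 39403, 40552 and 39999.5 in SHR glands and 44947, 42564 and 43522 in WKY glands, without overlap, at -0.13 ± 0.09 (limma adjusted p = 0.576). The arrays measure messenger RNA and say nothing of phosphorylation.

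Rpl5 and Rpl11, which carry the 5S ribosomal RNA into the large subunit and bind Mdm2 when ribosome assembly fails, lay close to zero. Rpl5 gave log2 differences of 0.07 ± 0.11 (M17419_at) and -0.10 ± 0.19 (rc_AI103498_at). Rpl11 gave 0.04 ± 0.11 (X62146cds_at) and -0.08 ± 0.17 (X62146cds_g_at). Rpl3, which reaches the peptidyl transferase centre, gave 0.0004 ± 0.10 (X62166cds_s_at) and 0.07 ± 0.17 (rc_AA892367_i_at). For each of these the strains overlapped.

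Rps3, at the entry of the messenger RNA channel and also a DNA repair protein, gave 0.10 ± 0.10 and -0.03 ± 0.11 on the log2 scale. Rpsa, a small-subunit protein also known as the laminin receptor, gave 0.11 ± 0.11 and 0.10 ± 0.10, and its strains overlapped. Rps2, at the channel's entry, gave 0.08 ± 0.11 through the probe set shared with its copies. Rps19, mutated in human Diamond-Blackfan anaemia, read 33146, 30476 and 31512 in SHR glands and 42292, 35544 and 35176 in WKY glands, without overlap, at -0.24 ± 0.11 (limma adjusted p = 0.389).

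SHR and WKY arrays did not overlap in 17 of the 98 probe sets (17.3%), 14 with SHR lower and 3 with SHR higher. The background over all tested probe sets was 20.7% without overlap, 10.5% with SHR lower and 10.2% with SHR higher, and 25.9% of the brightest 10% did not overlap. In total the share of ribosomal protein probe sets without overlap was thus near the background. Its 14 to 3 split was less even than that background, and the signs of the group's differences moved with the scaling, as given above. Singled out after their values were seen, Rpl41, the shortest ribosomal protein, read 8071, 6678 and 6724 in SHR glands and 8324, 8866 and 9423 in WKY glands (log2 difference -0.31 ± 0.14, limma adjusted p = 0.369). Rpl9, chosen in the same way, read 41443.5, 40028 and 38659 in SHR glands and 50866, 44183 and 46447.5 in WKY glands through X51706cds_g_at (-0.23 ± 0.10, limma adjusted p = 0.343). Rps27l, a paralogue of Rps27 that p53 induces in human cells, was also chosen after its values were seen and was 1 of the 3 with SHR above WKY, at 10256, 11032 and 11344 in SHR glands and 10221, 9767 and 10057 in WKY glands (0.12 ± 0.11, limma adjusted p = 0.707).

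The strain differences were also set out by the tract at the start. For the 20 tested genes with the tract exactly at the annotated start, 28 probe sets had log2 differences with a median of -0.050, between -1.61 and 0.60. For the 36 tested genes without it at that base, 56 probe sets had a median of -0.033, between -0.47 and 0.33. Some genes of this second group had a tract within 5 bases of the start, so the split depends on the annotated start. Each probe set was placed by its gene's start, even where copies share it. X60212_i_at, at -1.61, is shared with Rpl17l3 and Rpl17l5, whose starts carry no tract. Tested genes without a matched promoter entry are in neither group. Rpl17, Rps7, Rps15 and Rpl10a, whose starts are printed above, are in the first group, and Rps16 and Rps6 are in the second.

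The S6 kinase gene Rps6kb1 had 2 probe sets. M58340_at read 1768.5, 1616 and 1666 in SHR glands and 2708, 2035 and 2627 in WKY glands, SHR lying below WKY without overlap, at a log2 difference of -0.49 ± 0.17 (limma adjusted p = 0.249). M57428_s_at read 2495.5, 2727 and 2517 in SHR glands and 2334.5, 3749 and 3108 in WKY glands, with overlap, at -0.21 ± 0.19 (limma adjusted p = 0.684).

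Other genes of ribosome assembly and translation were counted from lists of translation factors, nucleolar genes, ribosome-associated proteins, mitochondrial ribosomal proteins and the S6 kinase and mTOR pathway. Over these lists limma called 0 of 93 tested probe sets, and 16 (17.2%) had an unadjusted p under 0.05, 9 of them higher and 7 lower in SHR, against 13.9% of all tested probe sets. The median log2 difference was -0.046.

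Elongation factors had the most positive median among the factor lists, 0.082 over 9 probe sets, with 0 called by limma and 3 higher at an unadjusted p under 0.05. All 3 were of Eef2, which moves the ribosome along the messenger RNA and is recruited by the P stalk. The one with the smallest p, rc_AA892801_g_at, read 39687, 40861 and 41467 in SHR glands and 31071, 33745 and 28161 in WKY glands, without overlap, at a log2 difference of 0.39 ± 0.10 (limma adjusted p = 0.127). The fourth Eef2 probe set gave 0.05 ± 0.11.

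Initiation factors had a median of -0.023 over 27 probe sets, with 0 called by limma and 2 in each direction at an unadjusted p under 0.05. Both tested probe sets of Eif4a2, an RNA helicase of cap-dependent initiation, were higher in all SHR arrays, at log2 differences of 0.50 ± 0.14 (limma adjusted p = 0.139) and 0.55 ± 0.16 (limma adjusted p = 0.163). Eif2b1, a subunit of the exchange factor for Eif2, gave -0.64 ± 0.21 (limma adjusted p = 0.221) and, through its other probe set, -0.32 ± 0.18 (limma adjusted p = 0.478). Eif2ak3, the kinase PERK that slows initiation in endoplasmic reticulum stress, gave -0.66 ± 0.25 (limma adjusted p = 0.299).

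Nucleolar and assembly genes had a median of -0.22 over 17 probe sets, with 0 called by limma and 1 higher and 2 lower at an unadjusted p under 0.05. Polr1b, a subunit of the polymerase that transcribes ribosomal RNA, gave -0.48 ± 0.16 (limma adjusted p = 0.236), and Myc, a transcription factor that drives ribosome production, gave -0.62 ± 0.25 (limma adjusted p = 0.317). The second Myc probe set gave -0.35 ± 0.19 (limma adjusted p = 0.462). Polr1d, a subunit shared with another polymerase, gave 0.38 ± 0.15 through one probe set (limma adjusted p = 0.316). Its other probe set had the opposite sign, at -0.19 ± 0.23 (limma adjusted p = 0.766). Mitochondrial ribosomal proteins, which serve a separate ribosome, had a median of -0.14 over 17 probe sets, with 0 called by limma and 1 at an unadjusted p under 0.05, that of Mrpl23 at 0.40 ± 0.17 (limma adjusted p = 0.353).

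Ribosome-associated genes, which include the translocon, had a median of -0.096 over 12 probe sets, with 0 called by limma and 1 at an unadjusted p under 0.05. That was Z14030_at of Ssr3, a translocon-associated protein, at 488, 364 and 360.1 in SHR glands and 1467, 787 and 2090.1 in WKY glands (log2 difference -1.40 ± 0.33, limma adjusted p = 0.0939). The brighter Ssr3 probe set rc_AA800034_at gave -0.10 ± 0.16 (limma adjusted p = 0.831).

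In the S6 kinase and mTOR list, which counts the Rps6kb1 probe sets again, the median was 0.10 over 11 probe sets, with 0 called by limma and 2 in each direction at an unadjusted p under 0.05. Akt2, a kinase upstream of mTOR, was higher in all SHR arrays through both probe sets, one of which read 2598, 2674 and 2539.6 in SHR glands and 1248, 1611.5 and 1345 in WKY glands. Its log2 differences were 0.82 ± 0.17 (rc_AI105076_s_at, limma adjusted p = 0.0538) and 0.79 ± 0.18 (D30041_at, limma adjusted p = 0.0786). Pdpk1, the kinase that activates both Akt and S6 kinase, gave -0.64 ± 0.23 (limma adjusted p = 0.258).

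Some markers of cell types that a whole adrenal gland can hold differed by strain and others did not. In bulk RNA fewer cells of a type and less RNA per cell cannot be told apart. The summed intensity of the fibroblast markers Col1a1 and Col3a1 was 22445 to 35164 in SHR and 56841 to 74827 in WKY, with 4 of 6 probe sets called lower in SHR by limma. That of the leukocyte markers was 15019 to 17922 in SHR and 22910.5 to 47655.5 in WKY, with 3 of 6 called lower, all of Cd74. Ptprc and Lyz2 did not pass, at log2 differences of 0.05 and -0.06. The summed intensity of the medulla markers was 33086.5 to 43496 in SHR and 45598 to 54247 in WKY, with Dbh the 1 of 5 called lower. The other medulla markers gave log2 differences of -0.57 (Pnmt), -0.82 (Slc18a1), -0.08 (Chgb) and -0.02 (Th).

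The fat cell markers overlapped at 15413 to 20109.7 in SHR and 17265 to 48957 in WKY, with Cfd the 1 of 5 called lower. The others did not pass, at log2 differences of -1.52 (Fabp4) and of -0.54, 0.38 and -0.03 (Lpl). The cortex markers overlapped at 242015 to 354917 in SHR and 282149.9 to 382717 in WKY, with 0 of 8 called by limma and 2 at an unadjusted p under 0.05. Both of the 2 were of Inha, higher in SHR at log2 differences of 0.59 and 0.55. The other cortex markers gave 0.34 (Nr5a1), 0.24 (Cyp11b2), -0.18 and -0.20 (Star), -0.56 (Cyp21a1) and -0.07 (Cyp11a1). Red blood cell markers summed to 34587 to 39859 in SHR and 43088 to 99452 in WKY, with 0 of 2 called by limma and 1 at an unadjusted p under 0.05. Of the kidney and liver markers limma called 0 of 2 each, with 0 at an unadjusted p under 0.05, and none of the 45 marker probe sets was listed at 0. Their part in the ribosomal protein values was not tested.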

How the data were processed

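Total RNA of whole adrenal gland was read on 6 single-colour Affymetrix arrays of the rat A set. The values deposited by the authors are intensities on a linear scale, per the file headers, with 1 for each probe set of an array. How probes were summarised and scaled is not stated in the sources used here; the mean after trimming 2% at each end lay between 2503.6 and 2503.9. Settings files deposited for each array (other values: lot, station, module, order of runs) gave 1 chip lot, 1 station and 2 runs more than 60 minutes apart. The GAPDH 3′ to 5′ ratio was 0.901 to 1.136, and that of hexokinase was 4.205 in SHR replicate 2 and 1.964 to 2.536 elsewhere.

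Of 8799 probe sets, 59 controls were left out. Symbols came from the array's annotation table, and promoter sequences from RefSeq's GRCr8 tables, matched by symbol. To each intensity 181.5, the 20th percentile of the values above 0, was added before the log2, so that fold changes of dim probe sets are understated. Probe sets above the 40th percentile of mean log2 intensity (5244) were fitted with limma 3.58.1 (R 4.3.3, lmFit and eBayes, trend on intensity), SHR minus WKY, with Benjamini-Hochberg adjustment over all of them at 0.05. Tests were two-sided. The limma fit was tested on simulated tables with independent noise whose spread followed intensity, and these held no run effect.

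The members, gene lists and tests were chosen with earlier results of these data known. Named were every called member, the 6 largest rises and falls, all probe sets of a set of well-known ribosomal proteins and of genes with 3 or more probe sets, and up to 4 of smallest p per list; others are said to be chosen after their values were seen. Alternatives were other scalings, pseudocounts, filters, variance priors, blocks and each array left out.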

Additional observations from a re-analysis of the deposited data

How the results depend on the processing

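The Rpl17 probe set X60212_i_at kept its direction and its call under every other scaling, pseudocount, filter, prior and block tried, and left out 1 array at a time its log2 difference lay between -1.72 and -1.54 (limma adjusted p 0.00309 to 0.0101). In the first run alone, added after seeing the data, it was -1.67 (limma adjusted p = 0.0969), so that 0 ribosomal protein probe sets were called lower; that setting, like the run block, compares 1 SHR array with 3 WKY arrays and assumes that the lone array varies like the others. Quantile normalization and the filter at the 60th percentile called 2 lower, adding Rps16. Calls higher stayed at 0 throughout. The median log2 difference of the group was -0.075 after quantile normalization and -0.0059 after scaling to a common median. Leaving out 1 array moved it between -0.083 (without WKY replicate 3) and -0.029, with 1 call lower and 0 higher each time. One translation probe set, of Akt2, was called after quantile normalization, scaling to a common median, 4 times the pseudocount, the filter at the 60th percentile and a robust prior, and 0 to 1 with an array left out, the 1 being Ssr3 without WKY replicate 2. Over all genes 102 probe sets were called, against 60 without an intensity trend, 20 with the run and 46 with the module as a block, 1 in the first run and 36 to 59 with an array left out. Same-numbered arrays shared little deviation from their strain means (correlations 0.001, 0.01 and 0.071), which does not settle whether they were paired. The fit with the replicate block called 53 in all, with the Rpl17 probe set at -1.61 (limma adjusted p = 0.00467). Of 1600 recomputed values of 90 named probe sets, 1514 kept their side of the threshold, 76 lost a call, 10 gained one and 0 called values reversed. Most named probe sets were not called in the main fit, so most of the 1514 had no call to lose. Only X60212_i_at of Rpl17 and probe sets of Dbh, Cfd, Cd74, Col1a1 and Col3a1 had one. Calls were thus less stable than the 1514 of 1600 would give. In 23 probe sets 71 uncalled values changed sign. With 3 arrays a strain, small differences are at the limit of what the arrays resolve.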
